A study of Mus musculus with 3 samples.

Results

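Interferon-induced GTPases were followed in tumor-infiltrating pmel T cells through 10 genes chosen by symbol, out of 33696 genes in the count tables. They are 6 guanylate-binding protein (GBP) genes, *Gbp2*, *Gbp3*, *Gbp4*, *Gbp5*, *Gbp7* and *Gbp9*, and 4 immunity-related GTPase (IRG) genes, *Irgm1*, *Irgm2*, *Igtp* and *Iigp1*. All 10 had at least 1 CPM (UMIs of the gene after scaling the library to 1000000 UMIs, where a UMI tags 1 captured RNA molecule) in the mean of the libraries, so none was lost to the filter on low values. Single-cell RNA-seq was available for 3 libraries of live Thy1.1+CD8+ cells sorted from B16F10 melanomas on day 18 after tumor injection, 1 library each for sIL-2 + IL-21, sIL-2 (super IL-2) and IL-2/21-Trikine. The cells came from TCR transgenic pmel mice, whose CD8 T cells recognize the melanoma antigen gp100. They had been cultured with gp100 peptide and the named cytokine before transfer into young, irradiated, tumor-bearing C57BL/6 mice. By the study's methods, recipients of the sIL-2 cells and of the sIL-2 + IL-21 cells were both injected with sIL-2 and no IL-21 after transfer. The sIL-2 + IL-21 group thus had IL-21 during culture only. Recipients of the IL-2/21-Trikine cells were injected with IL-2/21-Trikine. All 3 groups shared the transgenic receptor, the irradiation and the tumor line, and none was left without cytokine. How many mice went into a library was not found in the sources used here. With 1 library per treatment there are no replicates, differences between mice, libraries and treatments cannot be told apart, and no test between treatments was made. Intervals are exact at 95% and cover counting error only. Those on summed UMIs take each UMI as independent and leave out extra spread between cells.

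GBPs and IRGs are GTPases of cell-autonomous immunity. Interferon-γ induces them through GAS elements and through interferon regulatory factors, which bind ISRE elements, while type I interferons reach many of the same promoters through ISRE elements. The proteins act on membranes: effector GBPs and IRGs coat and break vacuoles that hold pathogens, and the Irgm proteins reside on the cell's own membranes and hold the effector IRGs in check. *Ifng* encodes interferon-γ, which activated CD8 T cells secrete, and the *Ifit* genes encode RNA-binding proteins that respond chiefly to type I interferon, so both were read in the same cells as the GTPases.

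After the study's stated limits on UMIs and mitochondrial share, 7760 cells remained under sIL-2, 13299 under IL-2/21-Trikine and 9798 under sIL-2 + IL-21, with 130200802, 166772854 and 168041089 UMIs. The number of cell barcodes that 2 libraries shared was between 18 and 41. The 7 T cell markers (*Cd3e*, *Cd8a* and *Thy1* among them) summed to between 4097 and 5034 CPM, against 0.468 to 1.70 CPM for *Cd4* and *Foxp3* together. Markers of other cells were low but not even. The 8 myeloid markers, all detected in each library, summed to 26.5 CPM under sIL-2, 26.4 under IL-2/21-Trikine and 12.8 under sIL-2 + IL-21. The 5 melanoma markers, also all detected, summed to 6.24, 8.82 and 2.22 CPM in the same order. Dendritic markers stayed at or under 0.216 CPM with *Siglech* at 0 in every library, and B cell markers stayed at or under 0.138 CPM. The NK cell markers *Ncr1* and *Klrb1c* summed to 5.55, 4.35 and 8.60 CPM and were highest with sIL-2 + IL-21. The 4 hemoglobin genes summed to 68.7 CPM with sIL-2 and to under 0.5 CPM in the others. The 3 stroma markers, *Col1a1*, *Col3a1* and *Pecam1*, summed to 42.9 CPM under sIL-2, 39.2 under IL-2/21-Trikine and 32.0 under sIL-2 + IL-21. T cells also express *Pecam1*.

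RNA of the 3 *Irgm* genes, whose proteins regulate the IRG family, was highest with sIL-2 and lowest with sIL-2 + IL-21. *Igtp*, which encodes Irgm3, stood at 102 CPM (100.6 to 104.1) under sIL-2, 98.2 CPM (96.7 to 99.7) under IL-2/21-Trikine and 62.1 CPM (60.9 to 63.3) under sIL-2 + IL-21. *Irgm1*, reported to protect activated CD4 T cells from interferon-driven death, stood at 43.4, 33.3 and 21.7 CPM in the same order of libraries. *Irgm2* stood at 24.0, 22.1 and 10.2 CPM. *Igtp* and *Irgm2* were thus close in the first 2 libraries and set apart in the sIL-2 + IL-21 library, whereas *Irgm1* was lower at each step. The effector IRG *Iigp1*, whose protein (Irga6) loads onto vacuoles, was the most graded of the 10, with 13.9 CPM (13.3 to 14.6) under sIL-2, 8.16 CPM (7.73 to 8.61) under IL-2/21-Trikine and 4.46 CPM (4.14 to 4.79) under sIL-2 + IL-21.

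Among the GBP genes the same library was lowest each time. *Gbp2*, whose protein attacks parasite vacuoles, stood at 35.3 CPM under sIL-2, 32.3 under IL-2/21-Trikine and 21.8 under sIL-2 + IL-21. *Gbp7*, another GBP of host defense, stood at 79.1, 58.7 and 52.3 CPM. Here the IL-2/21-Trikine library lay nearer to sIL-2 + IL-21 than to sIL-2, as it also did for *Gbp3* (31.3, 24.5 and 20.7 CPM). *Gbp4* stood at 46.5, 40.1 and 31.7 CPM. *Gbp9* stood at 24.3, 19.2 and 10.1 CPM, the largest ratio of the 6 GBP genes in sIL-2 over sIL-2 + IL-21. *Gbp5*, whose protein promotes inflammasome assembly, was the exception in order, with 23.6 CPM (22.8 to 24.5) under sIL-2, 26.7 CPM (26.0 to 27.5) under IL-2/21-Trikine and 16.1 CPM (15.5 to 16.7) under sIL-2 + IL-21. It was the only GTPase of the 10 to be highest with IL-2/21-Trikine.

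**Figure D1:**
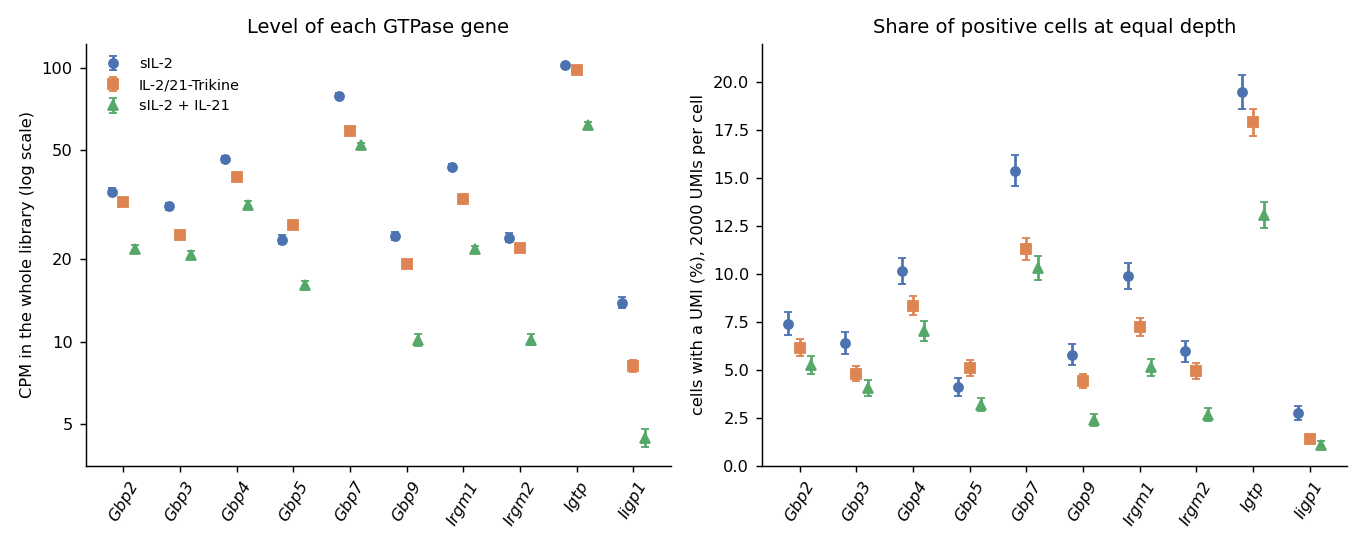
Left, CPM of each GTPase gene in each library on a log axis with 95% Poisson intervals. Right, percent of cells with at least 1 UMI of the gene after each cell was thinned to 2000 UMIs, with 95% binomial intervals. The sIL-2 + IL-21 library is lowest for all 10 genes in both panels, and *Gbp5* alone is highest with IL-2/21-Trikine.

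Set against sIL-2 + IL-21, all 10 genes were higher with sIL-2 by a log2 ratio of at least 0.5, where 11.3% of the 11275 genes at 1 CPM or more were. Ratios ran from 0.55 for *Gbp5* (0.48 to 0.63) and *Gbp4* (0.50 to 0.61) to 1.64 for *Iigp1* (1.52 to 1.77), with a median of 0.71 against 0.08 over all genes. The IRG genes had a median of 1.12 and the GBP genes one of 0.60. *Gbp9*, at 1.26 (1.17 to 1.34), was the only GBP gene that lay among the IRG genes *Irgm2*, at 1.24, and *Irgm1*, at 1.0. IL-2/21-Trikine was higher than sIL-2 + IL-21 by at least 0.5 for 7 of 10 genes, where 4.65% of all genes were. These were the 4 IRG genes with *Gbp2*, *Gbp5* and *Gbp9*, led by *Irgm2* at 1.12 (1.04 to 1.20) and *Gbp9* at 0.92 (0.84 to 1.01), while *Gbp7* was at 0.17, *Gbp3* at 0.24 and *Gbp4* at 0.34. The median of the 10 was 0.64, against -6.36e-05 over all genes. Between IL-2/21-Trikine and sIL-2 the distances were shorter. No gene was higher with IL-2/21-Trikine by 0.5, where 3.45% of all genes were, and *Iigp1* alone was lower by that much, at -0.77 (-0.87 to -0.67), where 7.42% of all genes were. The median was -0.27 against -0.08 over all genes, 9 of 10 ratios lay below 0, and *Gbp5* lay above it at 0.18 (0.11 to 0.25). The median of all genes was thus below 0 too. The share of all genes below 0 was not taken, nor the share that was lowest with sIL-2 + IL-21, so these counts have no background. These 3 comparisons share libraries and are not independent of each other. Fewer positive cells and less RNA per positive cell both lower a summed level. Shares of positive cells were taken too, but at 2000 UMIs per cell they nearly restate the level of a gene. *Gbp4* under sIL-2, for example, was found in 10.2% of cells at a mean of 0.113 UMIs per cell. The shares thus cannot tell fewer positive cells from less RNA per cell.

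The myeloid and melanoma markers were also lowest with sIL-2 + IL-21, and the NK cell markers highest. When every cell with a UMI of any myeloid, dendritic, B cell, melanoma, erythroid or collagen marker was left out, a choice made after the data were seen that left 88.8% of cells under sIL-2, 92.6% under IL-2/21-Trikine and 91.4% under sIL-2 + IL-21, the ratios were about as large. The median was then 0.71, with 10 genes past 0.5, in sIL-2 over sIL-2 + IL-21, 0.62 for IL-2/21-Trikine over sIL-2 + IL-21 with 7 genes past it, and -0.30 for IL-2/21-Trikine over sIL-2. The medians were 0.72, 0.61 and -0.30 when cells holding an NK cell marker were left out as well. In the comparisons with sIL-2 + IL-21, 10 and 7 genes were again past 0.5. The share of all genes past 0.5 was not taken in these smaller sets of cells.

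Promoters of the 10 genes were read for both kinds of interferon element. The genes were chosen as interferon-induced, so such elements were likely from the start. Whether they bear on the differences between libraries was not tested. RefSeq promoter windows of GRCm38.p6 (250 bases before to 50 after the start) were used for 7 of the 10 genes, all but *Gbp4*, *Gbp9* and *Iigp1*. The letters GAAANNGAAA, or TTTCNNTTTC on the other strand, were taken as an ISRE core, and TTCNNNGAA, which is its own complement, as a GAS core. Both can overlap, and an ISRE match can overlap the next one. All 7 windows held an ISRE core, against 3.44% of 32851 windows in the table, and 4 of 7 (*Gbp5*, *Gbp7*, *Irgm2* and *Igtp*) held a GAS core, against 8.30%. Windows with both made up 0.454% of the table. The stretches around these letters are given because they are what the 7 genes share. They lie before the start and are printed in the direction of the gene, with ISRE and GAS matches in capitals.
Gbp2 (chr3:142620584-142620625, + strand): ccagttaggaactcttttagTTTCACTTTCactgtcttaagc
Gbp3 (chr3:142559979-142560026, + strand): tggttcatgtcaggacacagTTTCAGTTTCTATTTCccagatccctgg
Gbp5 (chr3:142496749-142496790, + strand): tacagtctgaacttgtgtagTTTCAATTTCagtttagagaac
Gbp7 (chr3:142530210-142530304, + strand): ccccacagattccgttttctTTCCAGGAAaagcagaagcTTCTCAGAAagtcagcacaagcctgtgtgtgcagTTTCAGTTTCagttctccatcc
Irgm1 (chr11:48871423-48871470, - strand): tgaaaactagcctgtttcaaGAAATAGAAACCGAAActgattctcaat
Irgm2 (chr11:58214882-58214934, + strand): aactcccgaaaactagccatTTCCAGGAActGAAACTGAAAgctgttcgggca
Igtp (chr11:58199491-58199543, + strand): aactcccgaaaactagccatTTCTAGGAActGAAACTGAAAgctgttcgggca

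In *Gbp3* and *Irgm1* a pair of ISRE cores overlapped in a single run. *Gbp7* held 2 GAS cores upstream of its ISRE core, and the 2 GAS cores of *Gbp5* lay outside the stretch shown. The *Igtp* and *Irgm2* stretches differed at 1 of 53 bases (T24C, with *Igtp* as reference and positions counted from the first base shown), and in both genes a GAS core was followed by an ISRE core. *Irgm2* was the gene with the higher ratio of this pair against sIL-2 + IL-21. It was at 1.24 against 0.72 for *Igtp* with sIL-2, and at 1.12 against 0.66 with IL-2/21-Trikine. Whether the differing base bears on these ratios was not tested. Of the 6 *Ifit* genes 5 held an ISRE core and 1 a GAS core, and the *Ifng* window held a GAS core but no ISRE core. A match is a description of letters and not evidence of binding.

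Neighbors in the genome, by the order of protein-coding genes in GRCm38, were alike in some cases and not in others. *Gbp5*, *Gbp7* and *Gbp3* follow each other directly. *Gbp7* and *Gbp3* had close ratios, with -0.43 and -0.35 in IL-2/21-Trikine over sIL-2, where *Gbp5* had 0.18, and both with 0.60 in sIL-2 over sIL-2 + IL-21. *Gbp9* and *Gbp4* are adjacent, and sIL-2 over sIL-2 + IL-21 gave 1.26 and 0.55 for them. *Igtp* and *Irgm2* are adjacent too. Reads of close relatives can be exchanged, which was gauged by stretches of 50 bases within the last 1000 bases of transcripts that also occur in another gene. These made up 9.86% for *Gbp4*, with 4.66% shared with *Gbp6*, and 6.55% for *Igtp*, all shared with *Irgm2*. They made up under 3% for the other 8 genes, so *Gbp4* and *Igtp* are the less certain values.

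Other genes of the family were mostly lowest with sIL-2 + IL-21 too. Of 25 further interferon-induced GTPase symbols, 18 were in the tables and 15 had at least 1 CPM in the mean. With sIL-2, 14 of the 15 were higher than with sIL-2 + IL-21 by 0.5 or more, where 11.3% of all genes were, with a median of 1.01. With IL-2/21-Trikine 13 of 15 were, where 4.65% of all genes were, with a median of 0.78. *Gbp6* stood at 57.9 CPM under sIL-2, 46.3 under IL-2/21-Trikine and 30.3 under sIL-2 + IL-21. The antiviral GTPase gene *Mx1* stood at 47.6, 31.6 and 21.9 CPM. *Ifi47*, an effector IRG, shared the order of *Gbp5*, with 127, 141 and 78.1 CPM, and so did its relatives *Tgtp1* (5.12, 5.44 and 2.90 CPM) and *Tgtp2* (11.8, 13.8 and 6.76 CPM). *Gbp11* was the only one of the 15 that was not lowest with sIL-2 + IL-21, at 1.15, 1.09 and 1.18 CPM.

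The *Ifit* genes had larger median ratios than the GTPases in each comparison, over the 5 of 6 with at least 1 CPM, although the genes of both groups overlapped. The medians were 2.44 in sIL-2 over sIL-2 + IL-21, 1.52 for IL-2/21-Trikine over sIL-2 + IL-21 and -0.66 for IL-2/21-Trikine over sIL-2. *Ifit2*, at 1.23 in the first comparison and 0.75 in the second, lay below *Iigp1*, *Gbp9* and *Irgm2* in both. *Ifit3* stood at 40.4 CPM under sIL-2, 25.6 under IL-2/21-Trikine and 6.53 under sIL-2 + IL-21, and *Ifit1* at 31.7, 16.8 and 5.86 CPM. *Ifng* had another order, at 875, 617 and 665 CPM. IL-2/21-Trikine was thus lowest for *Ifng*, with a ratio of -0.11 to sIL-2 + IL-21, while all 10 GTPase genes were lowest in the sIL-2 + IL-21 library.

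Other interferon-stimulated genes, 15 of 19 with at least 1 CPM, were all higher by 0.5 than with sIL-2 + IL-21 in both other libraries, with medians of 1.27 and 0.88. *Isg15*, a ubiquitin-like modifier, stood at 142, 121 and 45.6 CPM, and the antiviral gene *Rsad2* at 23.9, 11.8 and 3.70 CPM. Receptors and signaling genes had smaller ratios. Of 18, 7 were higher by 0.5 with sIL-2 against 4 with IL-2/21-Trikine, where 11.3% and 4.65% of all genes were. The 18 had medians of 0.42 and 0.34, and none was lower by 0.5, where 7.29% and 5.66% of all genes were. The kinase gene *Jak2* stood at 182 CPM under sIL-2, 108 under IL-2/21-Trikine and 81.2 under sIL-2 + IL-21, and the feedback inhibitor gene *Usp18* at 37.3, 24.6 and 9.52 CPM. *Irf1*, which interferon-γ induces ahead of the GTPases, was highest with IL-2/21-Trikine, at 174 CPM against 145 and 123. The interferon-γ receptor gene *Ifngr1* stood at 581, 470 and 416 CPM and *Ifngr2* at 4.78, 4.61 and 3.63 CPM. The 18 partner genes were chosen from the autophagy conjugation system, inflammasomes, prenylation and ubiquitin ligases as genes linked to GTPase function. None was past 0.5 against sIL-2 + IL-21 in either comparison, and their medians were 0.20 and 0.06. Of all genes, 11.3% and 4.65% were higher and 7.29% and 5.66% lower by 0.5. *Map1lc3a* was the partner past 0.5 between IL-2/21-Trikine and sIL-2, at -0.54, where 7.42% of all genes were lower by that much. In that comparison 4 of the 15 other GTPase genes and 6 of the 15 other interferon-stimulated genes were also lower by 0.5. So were 3 of 5 *Ifit* genes and 3 of the 18 receptor and signaling genes. In these 4 lists 0 genes were higher by 0.5, where 3.45% of all genes were.

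**Figure D2:**
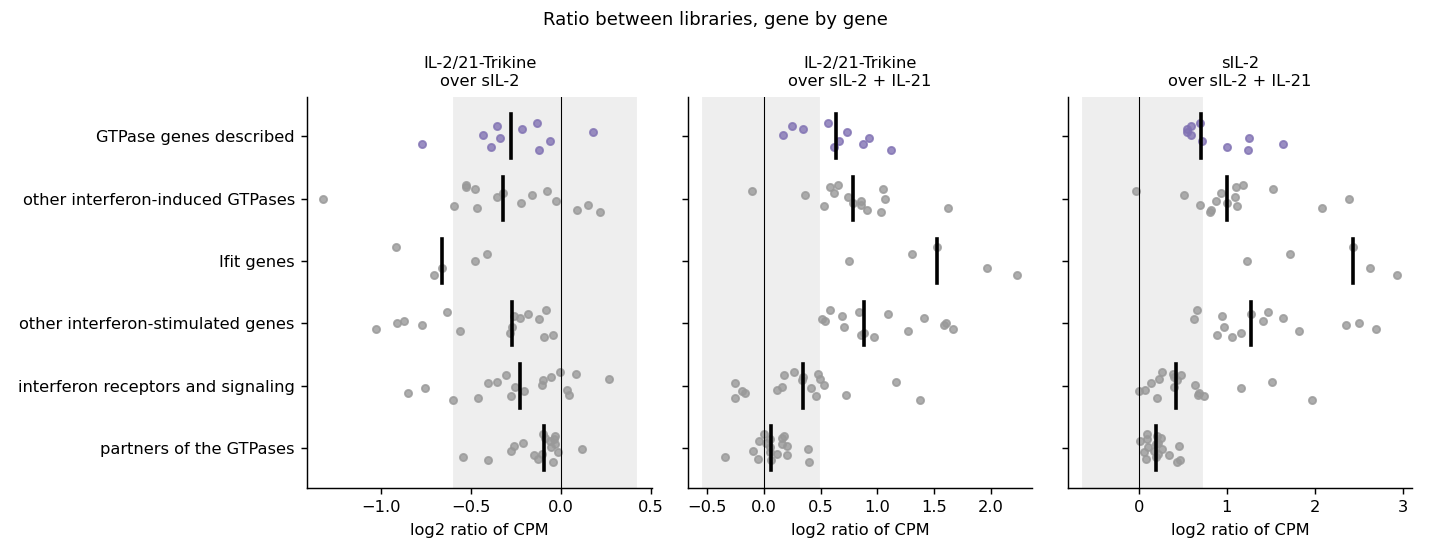
Log2 ratio of CPM between libraries for each gene at 1 CPM or more, by list, in the 3 comparisons. Points are genes, black bars are medians of lists and the gray band runs from the 5th to the 95th percentile of all genes. The 10 GTPase genes lie right of 0 in both comparisons with sIL-2 + IL-21, with a median of 0.71 and 0.64, between the partners near 0 and the *Ifit* genes.

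Cells differed in depth between libraries, so shares of positive cells were taken after each cell was thinned to 2000 UMIs. Shallower cells were left out, 266 under sIL-2, 1775 under IL-2/21-Trikine and 364 under sIL-2 + IL-21. At this depth 52.0% of cells (50.8 to 53.1) had a UMI of any of the 10 genes under sIL-2, 46.5% (45.6 to 47.4) under IL-2/21-Trikine and 38.5% (37.5 to 39.5) under sIL-2 + IL-21. Unthinned cells had one in 91.8%, 80.9% and 86.0%, at median depths of 12882, 10254 and 14056 UMIs, so the order of the last 2 libraries turned with depth while CPM and thinned shares kept IL-2/21-Trikine above sIL-2 + IL-21. For IRG genes the thinned shares were 29.7%, 26.7% and 19.0%, and for GBP genes 36.9%, 31.1% and 26.9%. *Igtp* was found in 19.5%, 17.9% and 13.1% of cells, *Gbp7* in 15.4%, 11.3% and 10.3%, and *Iigp1* in 2.74%, 1.41% and 1.07%. For *Gbp3*, *Gbp7* and *Iigp1* the interval of the share with IL-2/21-Trikine overlapped that of sIL-2 + IL-21. No class of cells here should lack the GTPases, so a background from free RNA could not be measured with them. The melanoma gene *Dct*, which T cells do not use, was found in 0.173%, 0.208% and 0.117% of thinned cells, below the share of each of the 10 genes.

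Several members were read together in a minority of cells. Cells with UMIs of 3 or more of the 10 genes made up 8.35% (7.74 to 9.0) under sIL-2, 5.71% (5.29 to 6.15) under IL-2/21-Trikine and 3.21% (2.87 to 3.59) under sIL-2 + IL-21. The mean number of GTPase UMIs was 1.04 per cell under sIL-2, 0.832 under IL-2/21-Trikine and 0.610 under sIL-2 + IL-21, and its variance was 2.49, 2.08 and 1.82 times the mean. Poisson counts have a variance equal to the mean, so the intervals on GTPase sums and means are too narrow for this spread. The 10% of cells with most GTPase UMIs held 45.0%, 44.9% and 48.6% of them. Up to 8 of the 10 genes were found in a single thinned cell with sIL-2 or IL-2/21-Trikine and up to 7 with sIL-2 + IL-21.

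GTPase UMIs were more numerous at each step of *Ifit* UMIs in the same cell, in every library. With sIL-2, cells with 0 *Ifit* UMIs had 0.767 GTPase UMIs (0.745 to 0.789), cells with 1 to 2 had 1.69 (1.61 to 1.78) and cells with 3 or more had 4.38 (4.16 to 4.60). With IL-2/21-Trikine the means were 0.689, 1.38 and 3.53 (3.31 to 3.76). With sIL-2 + IL-21 they were 0.554, 1.16 and 3.65 (3.18 to 4.17), the last over only 60 cells, against 341 and 276 in the other libraries. The bins were thus ordered alike in the 3 libraries, and in cells with 3 or more *Ifit* UMIs the interval of IL-2/21-Trikine overlapped that of sIL-2 + IL-21. Among those cells 94.1%, 90.9% and 88.3% had a GTPase UMI, against 47.1%, 42.8% and 37.0% of cells with no *Ifit* UMI. All 10 GTPase genes were higher by 0.5 or more between these classes in each library, where 15.1%, 17.7% and 23.2% of all genes were.

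**Figure D3:**
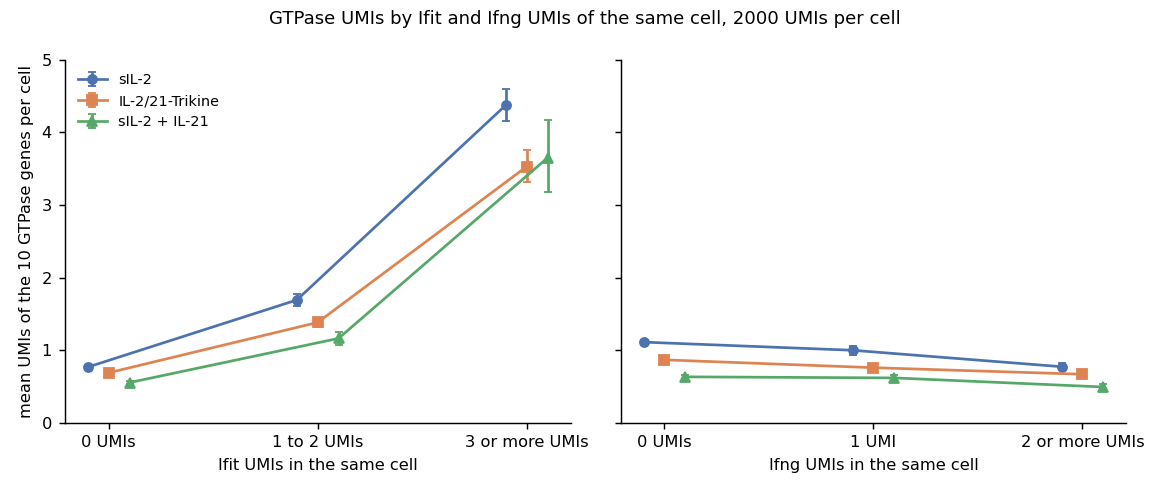
Mean UMIs of the 10 GTPase genes per cell, each cell thinned to 2000 UMIs, by *Ifit* UMIs (left) and *Ifng* UMIs (right) of the same cell, with 95% Poisson intervals. With sIL-2 the means run from 0.767 up to 4.38 over the *Ifit* bins and from 1.11 down to 0.773 over the *Ifng* bins, with the same directions in the other libraries.

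The 10 genes differed in how closely they followed *Ifit*. The ratio between cells with 3 or more and cells with 0 *Ifit* UMIs was largest for *Iigp1* in each library, at 4.01 (3.59 to 4.42) under sIL-2, 3.21 (2.62 to 3.76) under IL-2/21-Trikine and 5.03 (4.25 to 5.74) under sIL-2 + IL-21. With sIL-2, *Iigp1* was found in 18.5% of cells with 3 or more *Ifit* UMIs and in 1.49% of cells with 0. The ratio was smallest for *Gbp3* with sIL-2, at 1.26 (0.81 to 1.68), for *Gbp5* with IL-2/21-Trikine, at 1.72 (1.26 to 2.14), and for *Gbp4* with sIL-2 + IL-21, at 1.88 (1.06 to 2.59). IRG genes together gave 2.79, 2.48 and 3.02 and GBP genes 2.27, 2.25 and 2.47.

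*Ifng* ran the other way. With sIL-2, cells with 0, 1 and 2 or more *Ifng* UMIs had 1.11 (1.08 to 1.14), 0.999 (0.940 to 1.06) and 0.773 (0.722 to 0.826) GTPase UMIs. The means were 0.867, 0.759 and 0.668 with IL-2/21-Trikine and 0.633, 0.618 and 0.493 with sIL-2 + IL-21. The ratio of cells with 2 or more to cells with 0 *Ifng* UMIs was -0.52 (-0.63 to -0.42), -0.37 (-0.48 to -0.27) and -0.36 (-0.48 to -0.24), and 22.6%, 26.7% and 18.5% of all genes were lower by 0.5 in this contrast, so a ratio of that size was common. Of the 10 genes 6, 4 and 3 were lower by that much. *Irgm2* had the lowest ratio with sIL-2, at -1.09, and with sIL-2 + IL-21, at -1.71 (-2.60 to -0.93). In the latter library the cells with 2 or more *Ifng* UMIs held 14 UMIs of *Irgm2*. *Gbp9* was lower in each library, at -1.02, -0.70 and -0.95, and *Gbp4* too, at -0.70, -0.59 and -0.76. *Gbp3* was not lower in any, at 0.06 (-0.32 to 0.42), 0.37 (0.02 to 0.71) and 0.52 (0.14 to 0.89), and the intervals of *Gbp5* spanned 0 in all 3. Within cells without an *Ifit* UMI, those with an *Ifng* UMI had 0.642 GTPase UMIs and those without 0.820 with sIL-2, and the pair was 0.60 and 0.715 with IL-2/21-Trikine and 0.510 and 0.573 with sIL-2 + IL-21. The GTPase level was thus lower in *Ifng*-positive cells also where no *Ifit* UMI was read at this depth.

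Cells with an *Ifit* UMI made up 16.8% under sIL-2, 13.3% under IL-2/21-Trikine and 6.63% under sIL-2 + IL-21, and held 38.9%, 28.2% and 15.2% of all GTPase UMIs. Library ratios were therefore taken again in cells with no *Ifit* UMI, where sIL-2 over sIL-2 + IL-21 was 0.47 (0.41 to 0.53) for the 10 genes summed, against 0.78 in all thinned cells. IL-2/21-Trikine over sIL-2 + IL-21 was 0.31 (0.26 to 0.37), against 0.45, and IL-2/21-Trikine over sIL-2 was -0.15 (-0.21 to -0.10), against -0.33. The order of the libraries was thus the same in the majority of cells, in which no *Ifit* RNA was read, at a smaller distance. In cells with an *Ifit* UMI the 3 ratios were 0.79, 0.34 and -0.45. *Gbp9*, at 1.13, and *Irgm2*, at 0.96, kept the largest ratios of sIL-2 over sIL-2 + IL-21 in cells with no *Ifit* UMI. *Gbp5* split between these classes: IL-2/21-Trikine over sIL-2 was 0.57 (0.34 to 0.80) in cells with no *Ifit* UMI, where its means were 0.0529 and 0.0358 UMIs, and -0.36 (-0.71 to 0.00) in cells with one. In cells with no *Ifng* UMI the ratios of the sum were 0.81, 0.45 and -0.36, close to those in all cells.

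The 10 genes were also set beside T cell states, by cells with and without a UMI of fixed marker genes. The granzymes *Gzmc*, *Gzmd*, *Gzmf* and *Gzmg*, cytotoxic effector genes, were found in 40.6% of cells under sIL-2, 41.4% under IL-2/21-Trikine and 71.7% under sIL-2 + IL-21. Other granzyme genes were not counted, so granzyme-positive here means a UMI of these genes only. *Gzmc* was the highest of them, at 2386, 1783 and 4674 CPM in the same order of libraries. GTPase UMIs were lower in granzyme-positive cells, at 0.834 against 1.19 with sIL-2, 0.702 against 0.924 with IL-2/21-Trikine and 0.545 against 0.774 with sIL-2 + IL-21. The ratios were -0.51 (-0.58 to -0.44), -0.40 (-0.46 to -0.33) and -0.50 (-0.58 to -0.43). Of the 10 genes 6, 3 and 4 were lower by 0.5, where 10.1%, 6.25% and 10.7% of all genes were, and *Gbp9* and *Irgm2* were so in each library. Since granzyme-positive cells were more frequent with sIL-2 + IL-21, the library ratios were taken within both classes, a choice added after the data were seen. In cells with no granzyme UMI, sIL-2 over sIL-2 + IL-21 was 0.62 (0.54 to 0.69) and IL-2/21-Trikine over sIL-2 + IL-21 was 0.26 (0.18 to 0.33). In granzyme-positive cells they were 0.61 (0.54 to 0.69) and 0.36 (0.30 to 0.43). Both are below the 0.78 and 0.45 of all thinned cells.

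Cells with a UMI of the terminal genes *Pdcd1*, *Havcr2* or *Entpd1* had fewer GTPase UMIs, at ratios of -0.31 under sIL-2, -0.16 under IL-2/21-Trikine and -0.26 under sIL-2 + IL-21. The summed IRG genes carried most of this, at -0.49, -0.24 and -0.52, against -0.17, -0.10 and -0.08 for the summed GBP genes. Much of the IRG sum was *Igtp*, with 0.261 of 0.477 mean UMIs per cell under sIL-2, 0.231 of 0.383 under IL-2/21-Trikine and 0.160 of 0.258 under sIL-2 + IL-21. In cells with *Mki67* or *Top2a*, markers of dividing cells, the summed IRG genes were at -0.30, -0.25 and -0.58. The summed GBP genes were at -0.01, -0.07 and -0.15. *Gbp5* was higher in dividing cells of each library, at 0.43 (0.07 to 0.78), 0.42 (0.18 to 0.65) and 0.37 (0.04 to 0.69), while *Gbp9* was lower, at -0.78, -0.56 and -0.49. Among the stem-like genes, *Ccr7* gave most UMIs, at 294 CPM under sIL-2, 462 under IL-2/21-Trikine and 242 under sIL-2 + IL-21. In the same order *Tcf7* stood at 60.3, 59.9 and 21.7 CPM and *Slamf6* at 8.58, 13.1 and 6.08 CPM. The class was not split by gene. The stem-like genes *Tcf7*, *Ccr7* and *Slamf6* marked cells with about the same GTPase level as the rest with sIL-2, at 1.04 UMIs in both classes, and with IL-2/21-Trikine, at a ratio of 0.03 (-0.03 to 0.09). With sIL-2 + IL-21 they marked cells with a higher level, at 0.29 (0.22 to 0.37). Whether the libraries differ in this was not tested. *Gbp5* was at 0.64 (0.41 to 0.87) under IL-2/21-Trikine and 0.62 (0.30 to 0.94) under sIL-2 + IL-21, while with sIL-2 it was at 0.28 and its interval (-0.04 to 0.59) held 0.

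**Figure D4:**
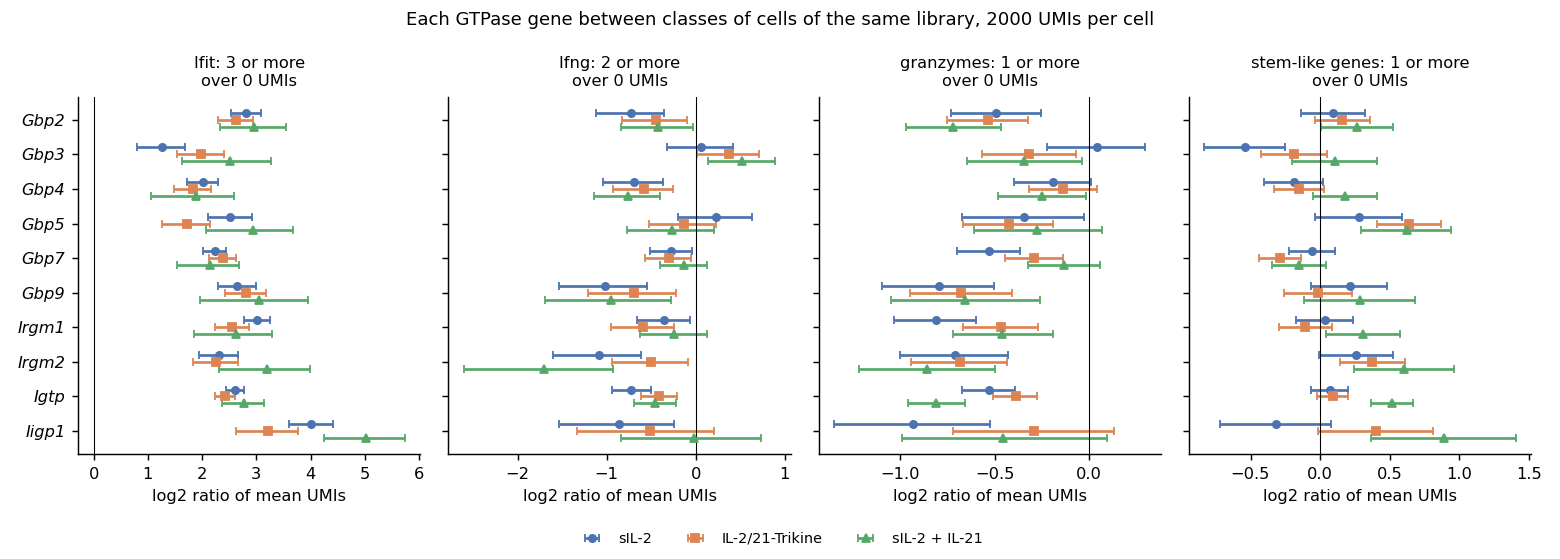
Log2 ratio of mean UMIs of each GTPase gene between classes of cells within a library, each cell thinned to 2000 UMIs, by *Ifit*, *Ifng*, granzyme and stem-like gene UMIs of the same cell. Points are libraries with 95% counting intervals. All points of the *Ifit* panel lie above 0, *Gbp3* lies above 0 in the *Ifng* panel, and *Gbp5* lies right of 0 in the stem-like panel.

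Across cells thinned to 5000 UMIs, correlations were given as descriptions, since the points share a library, a depth and a fixed total. The sum of the 10 genes had a Pearson correlation with the sum of *Ifit* UMIs, both as log(1 + UMIs), of 0.52 over 7279 cells with sIL-2, 0.42 over 10729 cells with IL-2/21-Trikine and 0.30 over 8891 cells with sIL-2 + IL-21. With *Ifng* it was -0.13, -0.13 and -0.09. The 45 pairs among the 10 genes were all above 0 at this depth, with medians of 0.16, 0.12 and 0.09. At 2000 UMIs the medians were 0.087, 0.062 and 0.046, and *Gbp5* with *Gbp9* lay at -0.0026 in the sIL-2 + IL-21 library. *Igtp* with *Irgm1* was the closest pair in each library at 5000 UMIs, at 0.32, 0.22 and 0.20. At 2000 UMIs this held with sIL-2, at 0.21, while *Igtp* with *Gbp2* was closer in the IL-2/21-Trikine library, at 0.13 against 0.11, and *Igtp* with *Iigp1* lay at 0.124 against 0.121 in the sIL-2 + IL-21 library. *Gbp3* was the loosest member, with 0.15, 0.17 and 0.12 against the sum of the other 9, where *Igtp* had 0.40, 0.34 and 0.29. Low counts limit these values, since most cells held 0 or 1 UMI of a gene.

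Among 4386 genes found in at least 5% of cells of every library at 2000 UMIs per cell, the 10 with the highest mean correlation with the GTPase sum over the 3 libraries included *Isg15* (0.29), *Samhd1* (0.26), *Ly6a* (0.23), *Ifi47* (0.23), *Ifi203* (0.22), *Epsti1* (0.21), *Zbp1* (0.21), *Rnf213* (0.21) and *Ifi209* (0.21). The median gene was at 0.00152 and the 95th percentile at 0.06. *Irf1* held rank 26, and *Ifng* rank 4301 with -0.07. The chemokine gene *Xcl1*, which activated CD8 T cells secrete, was lowest at -0.17. *Ifit* genes were each found in too few cells of a library to enter this ranking.

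**Figure D5:**
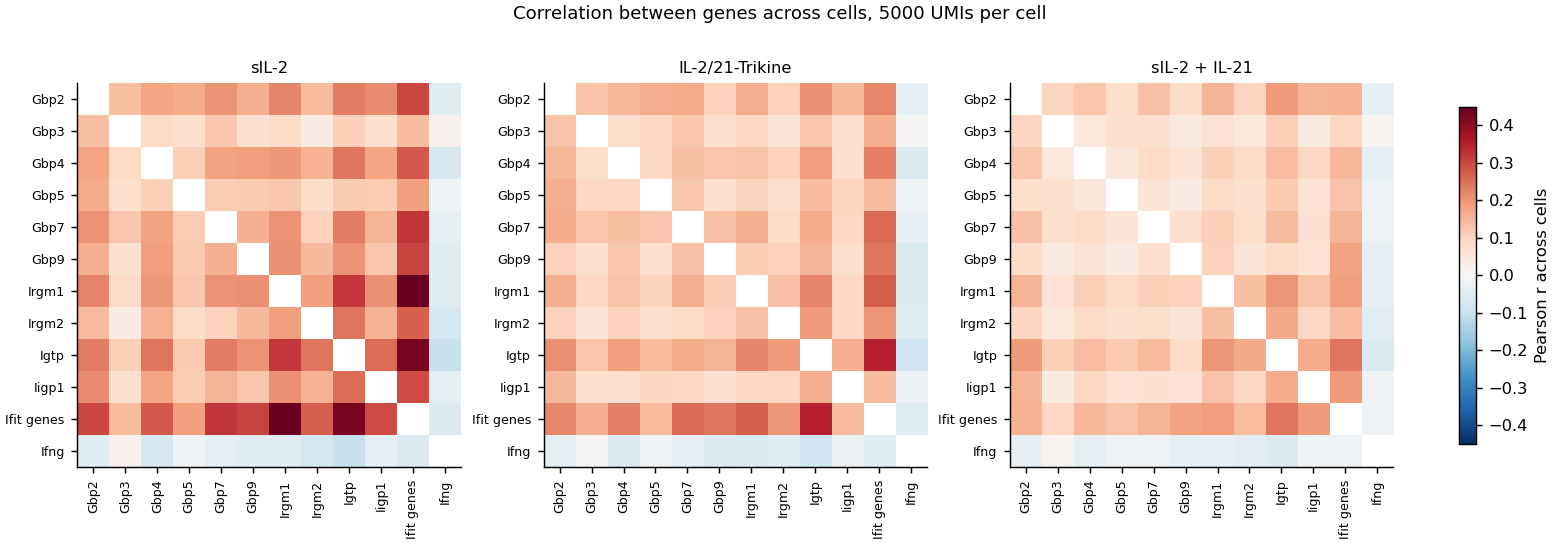
Pearson correlation across cells, each thinned to 5000 UMIs, between the 10 GTPase genes, summed *Ifit* genes and *Ifng*, as log(1 + UMIs), in each library. All pairs of GTPase genes are above 0, the *Ifit* column is the deepest red with sIL-2, and the *Ifng* column lies near or below 0.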

How the data were processed

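Live Thy1.1+CD8+ cells of 3 libraries were sequenced with 10x 3′ chemistry, and the counts deposited by the authors are unnormalized UMIs by gene and called cell, made with Cell Ranger (9.0.0 in the file headers) with intronic reads included. The submitters' notes name mm10 and the methods GRCm39, so gene positions are given only for RefSeq GRCm38.p6 promoters. Kept were cells with 500 to 120000 UMIs and at most 20% of UMIs from 13 mitochondrial genes, 30857 of 31026, and no doublet caller was run. UMIs summed over cells were scaled to CPM, and a log2 ratio of 0.5 between libraries was called among genes with a mean of at least 1 CPM. Shares, classes by *Ifit*, *Ifng* or state genes, and correlations were read after each cell was thinned to 2000 UMIs with a fixed seed (1000 and 5000 as alternatives). PCR copies were collapsed by UMI, and exact Poisson, Clopper-Pearson and conditional binomial intervals at 95% cover counting error only. The members and lists were chosen with earlier results of these data known. Named genes were the members, *Ifng*, the *Ifit* genes, list genes past 0.5 or at the edge of their list, and the 10 genes most correlated with the members. A gene that this rule names is not reported here. Genes named for staying level were chosen after their values were seen. Alternatives were scaling, equal weight per cell, cell limits, removal of other or of the deepest cells, and depth. The steps were tested on simulated data. For levels and intervals these were Poisson counts without extra spread between cells or libraries, so coverage near 95% was built in. Python 3.11.15, numpy 2.4.6, scipy 1.17.1, pandas 2.3.3 and matplotlib 3.10.9 were used.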

Additional observations from a re-analysis of the deposited data

How the results depend on the processing

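No paired analysis was possible because each treatment had 1 library. No replicate could be left out for the same reason. Under 9 alternatives all 270 member ratios kept their sign, while 59 moved outside the counting interval of the reported value. With each cell thinned to 2000 UMIs the median ratio of IL-2/21-Trikine was -0.38 to sIL-2 and 0.44 to sIL-2 + IL-21, the second below 0.5. With equal weight per cell that second median was 0.53. Set over sIL-2, IL-2/21-Trikine had 2 members lower by 0.5 after thinning and 3 with equal weight, against 1. In the comparisons with sIL-2 + IL-21, 9 or 10 members passed 0.5 for sIL-2 and 5 to 7 for IL-2/21-Trikine over all alternatives. The share of all genes past 0.5 was not taken under these alternatives, so the counts have no background. The share of cells with a member UMI follows depth by construction. At 1000 UMIs it was 33.9% in the sIL-2 library, 29.7% under IL-2/21-Trikine and 23.5% under sIL-2 + IL-21, and at 5000 UMIs 76.6%, 71.9% and 63.6%. The log2 ratio of cells with 3 or more over 0 *Ifit* UMIs was 2.66, 2.72 and 3.38 at 1000 UMIs and 2.26, 2.17 and 2.47 at 5000. For 2 or more over 0 *Ifng* UMIs it was -0.54, -0.53 and -0.54 at 1000 UMIs and -0.40, -0.37 and -0.33 at 5000. The correlation of member and *Ifit* sums was 0.43, 0.32 and 0.21 at 2000 UMIs and 0.52, 0.42 and 0.30 at 5000. Over all genes with a UMI, 21.1% were higher by 0.5 in sIL-2 over sIL-2 + IL-21, 18.4% in IL-2/21-Trikine over sIL-2 + IL-21 and 16.9% in IL-2/21-Trikine over sIL-2, where 19.2% were lower. At 50 CPM or more these shares were 10.9%, 3%, 1.68% and 5.05%. The marker list for other cells held *Pecam1*, which T cells also express, so versions that did not count it were added after the data were seen.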
